A study of Mus musculus with 6 samples.

Results

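Integrins and laminins are the cell-matrix adhesion receptors of animal cells and a family of basement membrane proteins that some of those receptors bind. They were taken from a deposited table of gene expression by symbol: names beginning with Itga, Itgb followed by 1 digit, and Lama, Lamb or Lamc followed by 1 digit. This gave 37 of the 22984 genes listed, of which 26 encode integrin subunits (18 alpha and 8 beta) and 11 encode laminin chains (5 alpha, 3 beta and 3 gamma). The cells were mouse bone marrow mesenchymal stem cells, the adherent stromal cells of marrow, which the submitters also call O-BMSCs without expanding the prefix. RNA came from 3 libraries of Grx2-/- cells, which lack glutaredoxin 2, and 3 libraries of Grx2+/+ cells, and the design asks how the groups differ in expression. The labels name no treatment, age, strain or passage, and they are silent on whether libraries of 1 genotype share an animal or a culture, so that p-values speak only of the spread among these libraries, which may be technical.

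An integrin is a pair of membrane proteins, 1 alpha and 1 beta subunit, and the pair decides the ligand. Subunits that join Itgb2 are made by blood leukocytes and bind other cells, while most subunits that join Itgb1 or Itgav are made by stromal and epithelial cells and bind collagen, laminin, fibronectin or other matrix proteins. A laminin is a trimer of 1 alpha, 1 beta and 1 gamma chain that polymerises into the basement membrane sheet. In marrow, these receptors anchor stromal cells to the matrix and hold blood-forming cells in place. The members were described in 4 groups by textbook role: 7 leukocyte integrins, 3 integrins shared by blood cells and stroma, 16 stromal and epithelial integrins, and 11 laminins.

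RefSeq promoter windows, 250 bases before to 50 after the annotated start in GRCm38.p6, were found for 23 of the 37 members, 26 windows in all. Shown are those of the collagen receptor subunits Itga11 and Itga1, which changed in opposite directions, of the leukocyte subunit Itgam, and of Lamb3, the laminin with the widest gap between the groups. They lie at chr9:62677605-62677904 (plus strand, Itga11), chr13:115101915-115102214 (minus strand, Itga1), chr7:128062390-128062689 (plus strand, Itgam) and chr1:193301744-193302043 (plus strand, the first of 2 Lamb3 windows). Capitals mark matches, on either strand, to GAGGAA, a string that ETS-family factors such as PU.1 can bind, and to GGGCGG, the GC box.
Itga11: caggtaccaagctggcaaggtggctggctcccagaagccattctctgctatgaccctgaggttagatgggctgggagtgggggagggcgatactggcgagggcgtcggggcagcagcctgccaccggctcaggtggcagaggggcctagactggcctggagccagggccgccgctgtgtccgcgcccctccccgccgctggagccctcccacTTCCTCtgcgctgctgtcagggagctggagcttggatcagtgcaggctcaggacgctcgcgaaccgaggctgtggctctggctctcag
Itga1: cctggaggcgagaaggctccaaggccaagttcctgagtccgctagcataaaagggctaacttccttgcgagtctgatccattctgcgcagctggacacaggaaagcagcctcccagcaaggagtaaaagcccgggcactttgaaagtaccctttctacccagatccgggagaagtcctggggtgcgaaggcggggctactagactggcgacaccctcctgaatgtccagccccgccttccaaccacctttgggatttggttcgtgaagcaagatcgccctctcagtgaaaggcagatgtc
Itgam: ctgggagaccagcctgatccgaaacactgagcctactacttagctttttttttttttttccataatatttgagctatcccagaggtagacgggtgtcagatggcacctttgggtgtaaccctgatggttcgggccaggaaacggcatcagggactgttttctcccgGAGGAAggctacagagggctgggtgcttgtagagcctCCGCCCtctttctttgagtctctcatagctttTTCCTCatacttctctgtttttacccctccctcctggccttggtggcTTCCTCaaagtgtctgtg
Lamb3: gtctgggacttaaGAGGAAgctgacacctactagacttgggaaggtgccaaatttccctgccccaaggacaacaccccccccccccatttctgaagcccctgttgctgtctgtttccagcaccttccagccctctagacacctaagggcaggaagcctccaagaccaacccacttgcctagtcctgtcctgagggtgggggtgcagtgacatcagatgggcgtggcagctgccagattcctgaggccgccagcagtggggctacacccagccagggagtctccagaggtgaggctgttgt

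The Itgam window held 3 GAGGAA matches and 1 GGGCGG match, the Itga11 and Lamb3 windows 1 GAGGAA match each, and the Itga1 window none. No 2 matches overlapped in these windows. Over all members, GAGGAA stood in 14 of 26 windows and in 28.3% of the 32851 windows of the table. GGGCGG stood in 12 of 26 windows and 35.7% of all, CCAAT in 4 and 37.4%, the AP-1 string TGACTCA in 2 and 5.2%, and TATAAA in 0 and 13.6%. The G and C content was 68% in the Itga11 window, 56.7% in Itga1, 50.3% in Itgam and 59.3% in Lamb3, against a median of 52.7% over the table. A match describes letters only, and nothing in the series measured binding.

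Values are FPKM, fragments scaled to gene length and sequencing depth, so levels can be compared between genes. Depth worked back from the values was 40797879 to 41794919 reads per library. The targeted gene, Glrx2, was listed at 0.00461, 0 and 0 FPKM in Grx2-/- libraries and at 3.57, 3.74 and 3.54 FPKM in Grx2+/+ libraries. Grx2-/- replicate 1 and Grx2+/+ replicate 2 stood furthest from their groups. The 9 stromal markers summed to 6275 to 6807 FPKM in Grx2-/- libraries and 8575 to 9520 FPKM in Grx2+/+ libraries. Of these, 2 rose (Pdgfra and Vim), 6 fell and 1 was not called. Most of the sum was Col1a1, Col1a2 and Vim. Lepr, 1 of those that fell, was near 0 in Grx2-/- libraries, with a mean of 0.0351 FPKM, against 3.83 FPKM in Grx2+/+ libraries. Markers of all leukocytes and of macrophages were present in both groups, and blood cell marker values are given after the leukocyte integrins.

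All 37 members were in the table, and 24 had a mean of at least 1 FPKM over the 6 libraries and were tested (limma with trend on log2(FPKM + 1), two-sided, Benjamini-Hochberg adjusted p under 0.05 over 11083 genes). Of these 24, 12 rose and 12 fell in Grx2-/- libraries. The background was wide: 67.4% of all tested genes were called, with 42.7% of all tested genes higher and 24.6% lower. Integrins gave 7 of the rises and 10 of the falls, and laminins 5 and 2. At least 2-fold changes on that scale were called for 9 members, 4 higher and 5 lower, against 10% of all tested genes. The groups did not overlap for any of the 24, against 73.1% of all tested genes. The 6 members Itga2b, Itga4, Itga7, Itga8, Lama2 and Lamb3 averaged under 1 FPKM in their lower group and passed the filter only through the other, so that they had to differ. All of these except Lama2 were among the 9 with changes of at least 2-fold, so the 9 cannot be read as an excess over the 10%. The 6 also count among the 24 called and the 24 without overlap. Those counts therefore cannot be read as an excess over 67.4% or 73.1% either. The rest of the 9 were Itga11, Itga6, Itgb2 and Itgb3. The median log2 fold change of the 24 was -0.01, and that of all tested genes was 0.09. With no filter, 15 of 37 members rose, 17 fell and 5 were not called, against 39.6% of 22984 genes called.

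**Figure D1:**
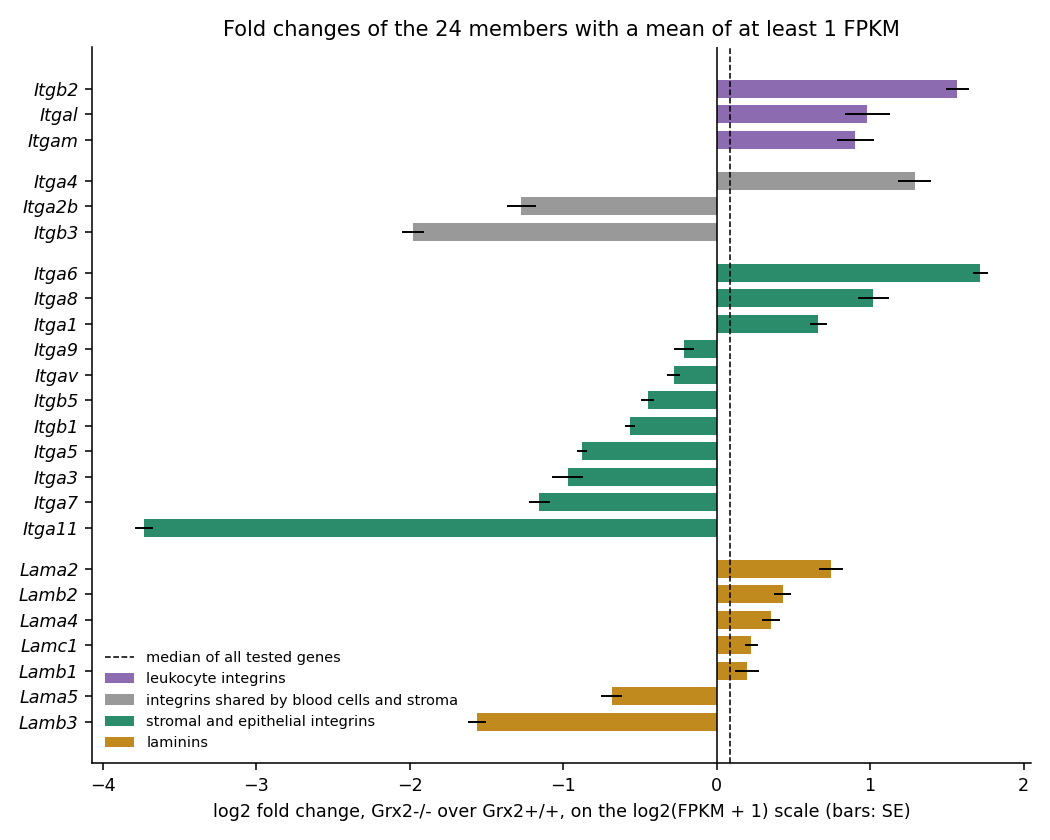
Horizontal bars give the log2 fold change of each tested member, Grx2-/- over Grx2+/+, on the log2(FPKM + 1) scale, with the SE as a line; colours give the 4 groups and the dashed line the median of all tested genes (0.09). All 3 tested leukocyte integrins lie to the right of 0, while Itga11 reaches -3.73, further than any other member.

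Leukocyte integrins that could be tested were all higher in Grx2-/- libraries. Itgb2, the beta subunit that most of these receptors share, had 73.6, 76.9 and 73.8 FPKM in Grx2-/- libraries, against 22.5, 27.9 and 23.5 FPKM in Grx2+/+ libraries. It rose by 1.57 ± 0.07 (log2 ± SE, limma adjusted p = 6.04e-07) and by level had rank 3 among the 37 members in Grx2-/- libraries, against rank 10 in Grx2+/+ libraries. Itgam, the alpha subunit of the complement receptor of macrophages and neutrophils, had 32.5, 42.9 and 40.9 FPKM in Grx2-/- libraries, against 17.7, 23.4 and 19.7 FPKM in Grx2+/+ libraries (log2 0.90 ± 0.12, limma adjusted p = 0.000286). Its lowest value in Grx2-/- libraries, in replicate 1, lay above its highest in Grx2+/+ libraries, in replicate 2. Itgal, the partner of Itgb2 on most leukocytes, had 4.20, 6.88 and 6.12 FPKM in Grx2-/- libraries, against 2.08, 2.50 and 2.50 FPKM in Grx2+/+ libraries (log2 0.98 ± 0.14, limma adjusted p = 0.000466).

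The other 4 leukocyte subunits were below the filter. Itgax, a subunit of dendritic cells and macrophages, had 0.575, 0.398 and 0.445 FPKM in Grx2-/- libraries, against 0.509, 0.527 and 0.674 FPKM in Grx2+/+ libraries, and the groups overlapped. Itgb7, which pairs with Itga4 or Itgae on gut-homing lymphocytes, averaged 0.720 ± 0.039 FPKM in Grx2-/- libraries and 1.11 ± 0.34 FPKM in Grx2+/+ libraries (SD, n = 3 each), and with no filter it was not called (limma adjusted p = 0.116). The gene Itgad, which encodes another Itgb2 partner, had 2, 0 and 0 reads in Grx2-/- libraries, against 17, 9 and 14 in Grx2+/+ libraries, a read ratio of Grx2+/+ over Grx2-/- of 20.1 with an exact 95% interval of 5.21 to 172. Itgae, the subunit of lymphocytes that settle in epithelium, had 3, 4 and 3 reads in Grx2-/- libraries and 0 in every Grx2+/+ library, where a count of 0 over the group allows up to 0.00597 FPKM. Intervals and limits of this kind cover counting error only. Itgam, Itgax and Itgad lie side by side on chromosome 7, and the 3 neighbours did not move together. Their sequences resemble each other, and how the authors' counting split reads between them is not given in the sources used here. In GENCODE M21, 68.7% of the Itgam exon length is also annotated to Gm49368 on the same strand.

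Blood cell markers went both ways. Sums for all leukocytes and for macrophages were higher in Grx2-/- libraries, as these genes were. Sums for neutrophils, T cells, dendritic cells and B cells were lower. The 6 markers of all leukocytes summed to 447 to 571 FPKM in Grx2-/- libraries and 187 to 220 FPKM in Grx2+/+ libraries. All 6 rose, though the groups overlapped for Cd52, and with no filter 5 rose and 1 was not called. The 11 macrophage markers summed to 796 to 972 FPKM in Grx2-/- libraries and 364 to 390 FPKM in Grx2+/+ libraries, with 9 rising, while Mertk and C1qa were not called. Neutrophil markers went the other way: the 11 summed to 3.33 to 3.93 FPKM in Grx2-/- libraries and 887 to 2575 FPKM in Grx2+/+ libraries, all 8 tested fell, and Retnlg was at 0 in every Grx2-/- library. The 4 T cell markers in the table summed to 0.0407 to 0.150 FPKM in Grx2-/- libraries and 0.555 to 0.653 FPKM in Grx2+/+ libraries. Cd3d, Cd3g and Cd4 were at 0 in every Grx2-/- library. Cd3d and Cd3g were near 0 in Grx2+/+ libraries too, with means of 0.00535 and 0.00791 FPKM. Most of the Grx2+/+ sum was Cd4, with a mean of 0.415 FPKM, and Lck, with 0.176 FPKM. The 6 dendritic cell markers summed to 0.189 to 0.247 FPKM in Grx2-/- libraries and 0.663 to 0.900 FPKM in Grx2+/+ libraries. Siglech, Ccr7 and Cd209a were at 0 in every Grx2-/- library and Xcr1 in every Grx2+/+ library. Siglech averaged only 0.00210 FPKM in Grx2+/+ libraries, and Xcr1 only 0.00365 FPKM in Grx2-/- libraries. The 5 B cell markers summed to 0.206 to 0.605 FPKM in Grx2-/- libraries and 0.819 to 1.41 FPKM in Grx2+/+ libraries. None was tested, and with no filter 3 fell and 2 were not called. In bulk RNA, fewer cells of a type and less RNA per cell cannot be told apart, and the part of these cells in the integrin values was not tested. Set against Ptprc, the leukocyte surface phosphatase, Itgal stood at ratios of 0.531 to 0.553 in Grx2-/- libraries and 0.431 to 0.583 in Grx2+/+ libraries, and the groups overlapped. Itgam stood at ratios of 3.32 to 4.28 in Grx2-/- libraries and 4.03 to 4.60 in Grx2+/+ libraries, which overlapped too. The ratio of Itgb2 to Ptprc was 5.95 to 9.69 in Grx2-/- libraries and 4.80 to 5.49 in Grx2+/+ libraries, with no overlap. That result is tied to Ptprc, because the 6 leukocyte markers rose by unlike amounts. Their log2 fold changes were 1.58 for Laptm5, 1.46 for Tyrobp, 1.17 for Coro1a, 0.99 for Ptprc, 0.97 for Cd53 and 0.42 for Cd52. Itgb2 rose by 1.57, and its ratios to the markers other than Ptprc were not taken.

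**Figure D2:**
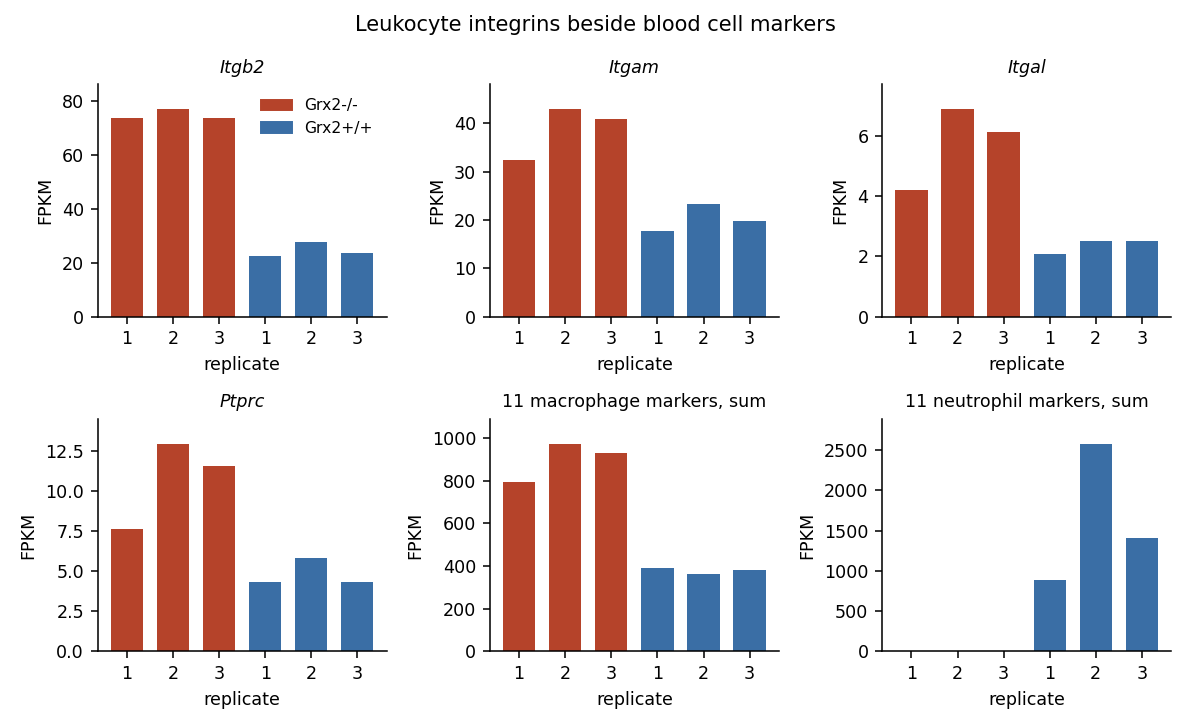
Bars give the FPKM of Itgb2, Itgam, Itgal and Ptprc and the summed FPKM of 11 macrophage and 11 neutrophil markers in each library, with replicates 1 to 3 of Grx2-/- on the left and of Grx2+/+ on the right of each panel. The macrophage sum is higher in every Grx2-/- library, and the neutrophil sum, 3.33 to 3.93 FPKM there, is too small to show as a bar.

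Of the integrins that blood cells and stroma share, 1 rose and 2 fell. Itga4, which blood cells and some stromal cells use to bind Vcam1 and fibronectin, had 2.87, 4.21 and 3.73 FPKM in Grx2-/- libraries, against 0.775, 0.973 and 0.862 FPKM in Grx2+/+ libraries (log2 1.29 ± 0.11, limma adjusted p = 1.83e-05). Grx2-/- replicate 1 was the lowest of its group for Itga4, as it was for Itgal, Itgam and Ptprc. In M21, 8.0% of the Itga4 exon length overlaps Cerkl on the opposite strand.

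Itga2b and Itgb3 together form the fibrinogen receptor of platelets, and Itgb3 also pairs with Itgav on osteoclasts and stromal cells. Itga2b had 0.912, 0.502 and 0.582 FPKM in Grx2-/- libraries, against 3.00, 2.85 and 3.17 FPKM in Grx2+/+ libraries (log2 -1.27 ± 0.09, limma adjusted p = 9.14e-06). Itgb3 had 2.63, 2.26 and 2.53 FPKM in Grx2-/- libraries, against 13.5, 11.5 and 13.1 FPKM in Grx2+/+ libraries (log2 -1.98 ± 0.07, limma adjusted p = 1.79e-07), so both chains of the pair were lower in every Grx2-/- library. The 6 megakaryocyte and platelet markers summed to 146 to 182 FPKM in Grx2-/- libraries and 120 to 159 FPKM in Grx2+/+ libraries. Most of that sum was Pf4, with 133 to 168 FPKM in Grx2-/- libraries and 99.6 to 142 FPKM in Grx2+/+ libraries. Of the 2 tested, Pf4 rose and Ppbp fell, and Gp9 was at 0 in every Grx2-/- library. The 6 osteoclast markers summed to 72.8 to 83.8 FPKM in Grx2-/- libraries and 108 to 124 FPKM in Grx2+/+ libraries. Most of that sum was Ctsk, with 70.8 to 81.7 FPKM in Grx2-/- libraries and 95.1 to 107 FPKM in Grx2+/+ libraries. Both tested markers (Acp5 and Ctsk) fell, and Acp5 averaged 0.844 FPKM in Grx2-/- libraries and 13.5 FPKM in Grx2+/+ libraries. Calcr was at 0 in every Grx2-/- library and averaged only 0.0104 FPKM in Grx2+/+ libraries. Dcstamp, a fusion protein of osteoclasts below the filter, averaged 1.03 FPKM in Grx2-/- libraries and 0.320 FPKM in Grx2+/+ libraries, with no overlap. The part of these cells in the values of Itga2b and Itgb3 was not tested.

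Subunits of collagen receptors, which pair with Itgb1, did not move together. Itga11, the fibroblast subunit for fibrillar collagen, had 13.0, 12.8 and 13.4 FPKM in Grx2-/- libraries, against 198, 169 and 192 FPKM in Grx2+/+ libraries. It fell by 3.73 ± 0.06 on the log2 scale (limma adjusted p = 4.61e-09), and the read ratio of Grx2+/+ over Grx2-/- was 14.3 (exact 95% interval 14.0 to 14.6). By level it had rank 12 among the 37 members in Grx2-/- libraries and rank 2, behind Itgb1, in Grx2+/+ libraries. Itga1, a subunit with a preference for basement membrane collagen, went the other way, with 9.72, 9.76 and 9.32 FPKM in Grx2-/- libraries, against 5.93, 5.30 and 5.87 FPKM in Grx2+/+ libraries (log2 0.66 ± 0.05, limma adjusted p = 1.37e-05). The ratio of Itga11 to Itga1 was therefore 1.36 ± 0.07 in Grx2-/- libraries and 32.7 ± 0.7 in Grx2+/+ libraries (SD, n = 3 each).

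Both remaining collagen receptor subunits were below the filter. Itga10, the cartilage subunit, had 0.384, 0.304 and 0.281 FPKM in Grx2-/- libraries, against 0.836, 0.799 and 0.780 FPKM in Grx2+/+ libraries. Itga2, a subunit of platelets and epithelium, had 0.0976, 0.127 and 0.124 FPKM in Grx2-/- libraries, against 0.324, 0.369 and 0.302 FPKM in Grx2+/+ libraries. Neither gene overlapped between the groups, and with no filter both fell (limma adjusted p = 0.000373 for Itga10 and 0.000471 for Itga2). Itga1 and Itga2 are neighbours on chromosome 13 and lay on opposite sides. In M21, 33.5% of the Itga10 exon length is shared with Gm42957.

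**Figure D3:**
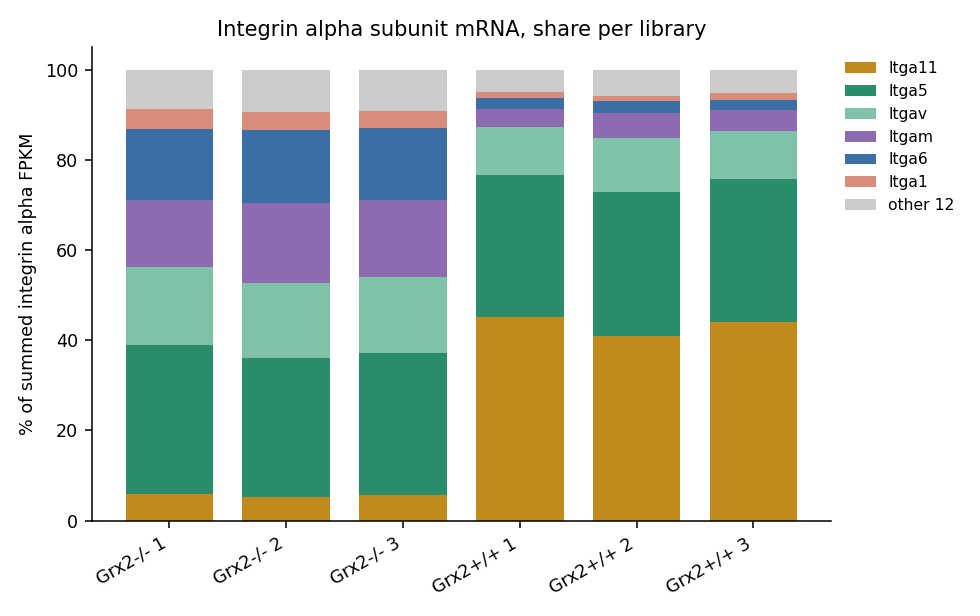
Stacked bars give each alpha subunit's percent of the summed FPKM of all 18 integrin alpha subunits, by library, with the 3 Grx2-/- libraries on the left and the 3 Grx2+/+ libraries on the right. Itga11 takes 5.29% to 6.00% in Grx2-/- libraries and 40.9% to 45.2% in Grx2+/+ libraries, while the Itga5 share averages 31.8% in Grx2-/- libraries and 31.7% in Grx2+/+ libraries.

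The alpha subunits summed to 232 ± 13 FPKM in Grx2-/- libraries and 429 ± 14 FPKM in Grx2+/+ libraries, and the make-up of the sum differed as well. Itga11 made up 5.65% ± 0.35 of it in Grx2-/- libraries and 43.4% ± 2.3 in Grx2+/+ libraries. In Grx2-/- libraries Itga6 held 15.8% ± 0.2, Itgam 16.7% ± 1.5 and Itgav 16.9% ± 0.3. In Grx2+/+ libraries Itga6 held 2.44% ± 0.11, Itgam 4.74% ± 0.83 and Itgav 11.1% ± 0.7 (SD, n = 3 each). Shares of 1 sum are not independent of each other, and the drop of Itga11 alone raises the others.

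Laminin receptor subunits also split. Itga6, which joins Itgb1 or, in epithelium, Itgb4, had 34.0, 38.8 and 37.4 FPKM in Grx2-/- libraries, against 10.3, 10.6 and 10.5 FPKM in Grx2+/+ libraries. It rose by 1.72 ± 0.05 (limma adjusted p = 8.20e-08), the largest rise of any tested member on that scale. Itga3, whose product binds the laminins of epithelium and vessels, had 2.38, 2.34 and 2.34 FPKM in Grx2-/- libraries, against 4.64, 6.67 and 5.54 FPKM in Grx2+/+ libraries (log2 -0.97 ± 0.10, limma adjusted p = 6.91e-05). Itga7, the laminin receptor subunit of muscle, had 0.454, 0.458 and 0.486 FPKM in Grx2-/- libraries, against 2.01, 2.44 and 2.37 FPKM in Grx2+/+ libraries (log2 -1.16 ± 0.07, limma adjusted p = 2.47e-06). The ratio of Itga6 to Itga3 was 15.6 ± 1.2 in Grx2-/- libraries and 1.90 ± 0.31 in Grx2+/+ libraries. Itgb4, the hemidesmosome subunit, was below the filter, with 88, 69 and 90 reads in Grx2-/- libraries and 26, 22 and 18 reads in Grx2+/+ libraries, and with no filter it rose (limma adjusted p = 0.000652).

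Muscle marker sums, set beside Itga7, overlapped between the groups. The 6 summed to 2.39 to 3.76 FPKM in Grx2-/- libraries and 3.22 to 30.1 FPKM in Grx2+/+ libraries. Of 2 tested, 1 fell, and Myod1 and Pax7 were at 0 in every Grx2-/- library. Pax7 was near 0 in Grx2+/+ libraries too, with a mean of 0.00138 FPKM. The part of muscle cells in the Itga7 values was not tested. Vessel cells also make Itga5, Itga6 and several laminins, and the 8 endothelial markers summed to 2.87 to 3.05 FPKM in Grx2-/- libraries and 18.8 to 22.1 FPKM in Grx2+/+ libraries. Of the 5 tested, 4 fell, and Tie1 and Cldn5 were at 0 in every Grx2-/- library. Tek, an endothelial receptor below the filter, averaged 0.609 FPKM in Grx2-/- libraries and 0.265 FPKM in Grx2+/+ libraries, with no overlap. The part of endothelial cells in these results was not tested.

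Itgb1, Itga5, Itgav and Itgb5, abundant subunits of receptors for fibronectin and vitronectin, fell. Itgb1, the shared beta subunit and the most abundant member in both groups, had 318, 302 and 306 FPKM in Grx2-/- libraries, against 463, 452 and 457 FPKM in Grx2+/+ libraries (log2 -0.57 ± 0.03, limma adjusted p = 1.76e-06). Itga5, which with Itgb1 forms the main fibronectin receptor, had 71.7, 74.4 and 74.7 FPKM in Grx2-/- libraries, against 138, 132 and 138 FPKM in Grx2+/+ libraries (log2 -0.88 ± 0.03, limma adjusted p = 2.26e-07). The Grx2-/- level of Itga5 was thus 0.542 of the Grx2+/+ level, and that of Itgb1 0.675. Itgav, the alpha subunit of the vitronectin receptors, had 37.3, 39.9 and 40.0 FPKM in Grx2-/- libraries, against 46.7, 49.3 and 46.9 FPKM in Grx2+/+ libraries (log2 -0.28 ± 0.04, limma adjusted p = 0.000447). Its partner Itgb5 had 71.7, 78.4 and 78.2 FPKM in Grx2-/- libraries, against 106, 101 and 105 FPKM in Grx2+/+ libraries (log2 -0.45 ± 0.04, limma adjusted p = 4.07e-05). All 4 of these abundant subunits were lower in every Grx2-/- library than in any Grx2+/+ library, by smaller factors than Itgb3. The ratio of Itgb5 to Itgb3 was 31.0 ± 3.7 in Grx2-/- libraries and 8.24 ± 0.48 in Grx2+/+ libraries.

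Itga8, a subunit whose ligand nephronectin is needed in the developing kidney, rose, as did Itga1 and Itga6 among the stromal and epithelial integrins. Itga8 had 1.58, 2.34 and 2.18 FPKM in Grx2-/- libraries, against 0.431, 0.554 and 0.473 FPKM in Grx2+/+ libraries (log2 1.02 ± 0.10, limma adjusted p = 4.82e-05). Npnt, which encodes nephronectin, changed in the opposite direction, as given with the ligands of stromal integrins. Itga9, a receptor subunit for tenascin C, had 5.44, 4.91 and 5.18 FPKM in Grx2-/- libraries, against 6.77, 5.77 and 5.98 FPKM in Grx2+/+ libraries (log2 -0.21 ± 0.07, limma adjusted p = 0.0204). This call was lost without Grx2-/- replicate 2 (limma adjusted p = 0.0624), Grx2-/- replicate 3 (0.0565) or Grx2+/+ replicate 1 (0.0674).

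The other 2 beta subunits, Itgb8 and Itgb6, were below the filter. Itgb8, which with Itgav activates latent TGF-beta, had 0.679, 0.727 and 0.749 FPKM in Grx2-/- libraries, against 0.462, 0.288 and 0.461 FPKM in Grx2+/+ libraries. With no filter it rose (limma adjusted p = 0.00981). Itgb6, the epithelial partner of Itgav, had 1, 0 and 6 reads in Grx2-/- libraries and 0, 6 and 6 reads in Grx2+/+ libraries, and no difference was detectable at this depth. The beta subunits summed to 464 ± 3 FPKM in Grx2-/- libraries and 601 ± 6 FPKM in Grx2+/+ libraries. Itgb1 made up 66.6% of the sum and Itgb2 16.1% in Grx2-/- libraries, against 76.2% and 4.10% in Grx2+/+ libraries.

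**Figure D4:**
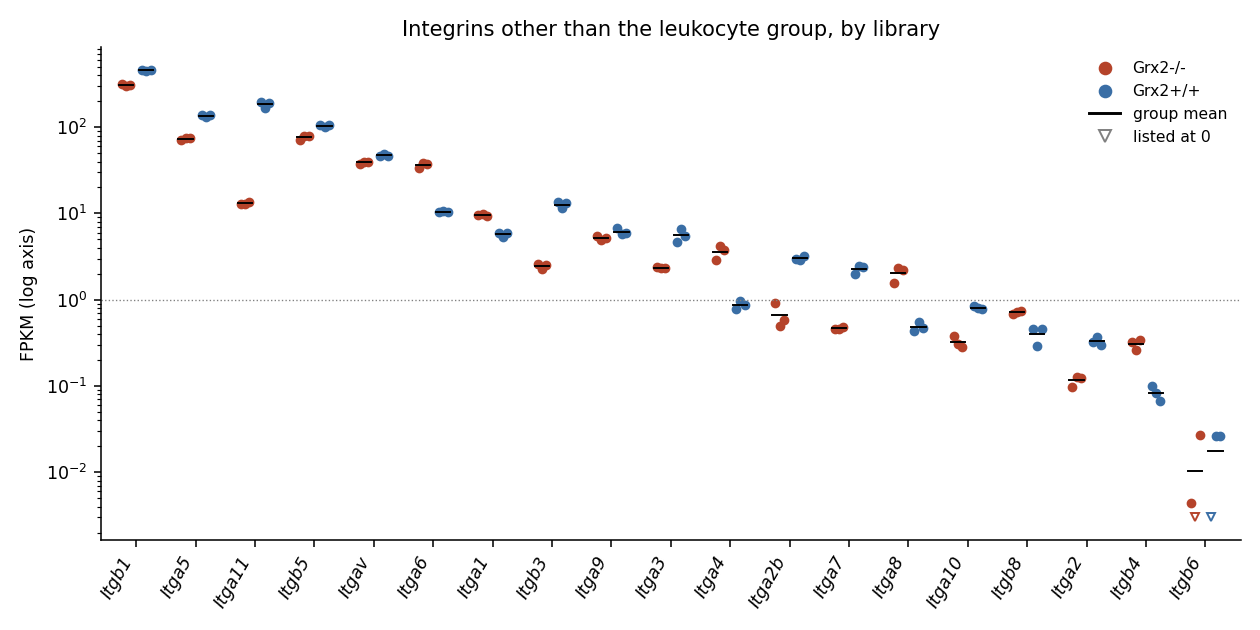
Points give the FPKM of each integrin outside the leukocyte group in each library on a log axis, Grx2-/- left and Grx2+/+ right for each gene, with bars for group means, a dotted line at 1 FPKM, and open triangles for values listed at 0. Itga11 has the widest gap among the genes above 1 FPKM in both groups, 13.1 FPKM in Grx2-/- libraries against 186 FPKM in Grx2+/+ libraries on average, and only Itgb6 overlaps.

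Abundant laminin chains were modestly higher in Grx2-/- libraries. Lama4, the alpha chain of mesenchymal cells and vessel walls, had 43.8, 37.7 and 39.8 FPKM in Grx2-/- libraries, against 32.7, 29.7 and 31.8 FPKM in Grx2+/+ libraries (log2 0.35 ± 0.06, limma adjusted p = 0.00108). Lamb2, a beta chain of mature basement membranes, had 50.6, 44.6 and 46.8 FPKM in Grx2-/- libraries, against 35.9, 33.1 and 35.7 FPKM in Grx2+/+ libraries (log2 0.43 ± 0.05, limma adjusted p = 0.000184). Both were higher in every Grx2-/- library, and Grx2-/- replicate 1 held the highest value of each. Lamc1, the gamma chain of most laminins, had 51.0, 46.0 and 47.2 FPKM in Grx2-/- libraries, against 41.5, 40.0 and 41.2 FPKM in Grx2+/+ libraries (log2 0.23 ± 0.04, limma adjusted p = 0.00226). Lamb1, the other widespread beta chain, had 59.5, 46.9 and 51.8 FPKM in Grx2-/- libraries, against 45.3, 45.7 and 45.9 FPKM in Grx2+/+ libraries (log2 0.20 ± 0.08, limma adjusted p = 0.0479).

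Relative to the median of all tested genes, these changes were 0.34 for Lamb2, 0.27 for Lama4, 0.14 for Lamc1 and 0.11 for Lamb1 on the log2 scale. The call of Lamb1 was lost without Grx2-/- replicate 1 (log2 0.11, limma adjusted p = 0.0693), Grx2-/- replicate 3 (0.0920), Grx2+/+ replicate 1 (0.104), replicate 2 (0.0933) or replicate 3 (0.102). It was also lost without Grx2-/- replicate 1 and Grx2+/+ replicate 2 together (limma adjusted p = 0.0821), with no filter (0.124) and under median-of-ratios scaling (0.278). Of the 4 chains, Lamb1 (limma adjusted p = 0.414) and Lamc1 (0.0913) were lost under quantile normalization.

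Less abundant alpha chains went both ways. Lama2, the alpha chain of muscle and nerve basement membranes, had 2.51, 1.95 and 2.31 FPKM in Grx2-/- libraries, against 0.888, 1.04 and 0.889 FPKM in Grx2+/+ libraries (log2 0.75 ± 0.08, limma adjusted p = 6.87e-05). Lama5, the alpha chain of epithelial and vascular basement membranes, had 1.37, 1.17 and 1.31 FPKM in Grx2-/- libraries, against 2.80, 2.42 and 2.79 FPKM in Grx2+/+ libraries (log2 -0.68 ± 0.07, limma adjusted p = 4.87e-05). Schwann cell markers, from the cells of peripheral nerve, summed to 6.09 to 6.89 FPKM in Grx2-/- libraries and 23.2 to 24.6 FPKM in Grx2+/+ libraries, and 2 of the 5 were tested. Most of the sum was Ncam1, which other cells make too and which fell to 3.69 to 4.08 FPKM in Grx2-/- libraries, against 21.3 to 23.2 FPKM in Grx2+/+ libraries. S100b rose, with means of 2.41 FPKM in Grx2-/- libraries and 1.33 FPKM in Grx2+/+ libraries, and the part of Schwann cells in the Lama2 values was not tested. Lama4 was the main alpha chain in both groups, with 91.0% ± 0.3 of the summed laminin alpha FPKM in Grx2-/- libraries and 87.6% ± 0.2 in Grx2+/+ libraries (SD, n = 3 each). Lama1, the alpha chain of the early embryo, was below the filter, with 0.105, 0.104 and 0.0875 FPKM in Grx2-/- libraries and 0.799, 0.697 and 0.876 FPKM in Grx2+/+ libraries, and with no filter it fell (limma adjusted p = 7.78e-05).

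Lama3 and Lamb3, which encode chains of the laminin that anchors epidermis, did not move together. Lamb3 had 0.0502, 0.0340 and 0.0227 FPKM in Grx2-/- libraries, against 2.03, 2.18 and 1.97 FPKM in Grx2+/+ libraries. In reads this was 9, 6 and 4 in Grx2-/- libraries, against 355, 385 and 351 in Grx2+/+ libraries, a read ratio of Grx2+/+ over Grx2-/- of 57.7 (exact 95% interval 36.7 to 96.2), while the fitted log2 fold change was -1.56 ± 0.06 (limma adjusted p = 2.36e-07), smaller because of the pseudocount of 1. Lama3 lay the other way, with 169, 158 and 167 reads in Grx2-/- libraries and 16, 19 and 22 reads in Grx2+/+ libraries, a read ratio of Grx2-/- over Grx2+/+ of 8.63 (exact 95% interval 6.55 to 11.6). With no filter Lama3 rose (limma adjusted p = 1.61e-05). Lamc3, a gamma chain of brain and retina, had 2, 4 and 3 reads in Grx2-/- libraries and 9, 6 and 3 reads in Grx2+/+ libraries, and the groups overlapped.

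Epithelial markers were near 0 in both groups: the 6 summed to 0.0628 to 0.138 FPKM in Grx2-/- libraries and 0.176 to 0.300 FPKM in Grx2+/+ libraries, none was tested, and Krt5 was at 0 in every Grx2-/- library and Krt8 in every Grx2+/+ library. The part of epithelial cells in the Lamb3 values was not tested. Lamb3 and Lamc1 lie on chromosome 1, as the targeted Glrx2 does. Whether their place on that chromosome bears on their values was not tested.

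**Figure D5:**
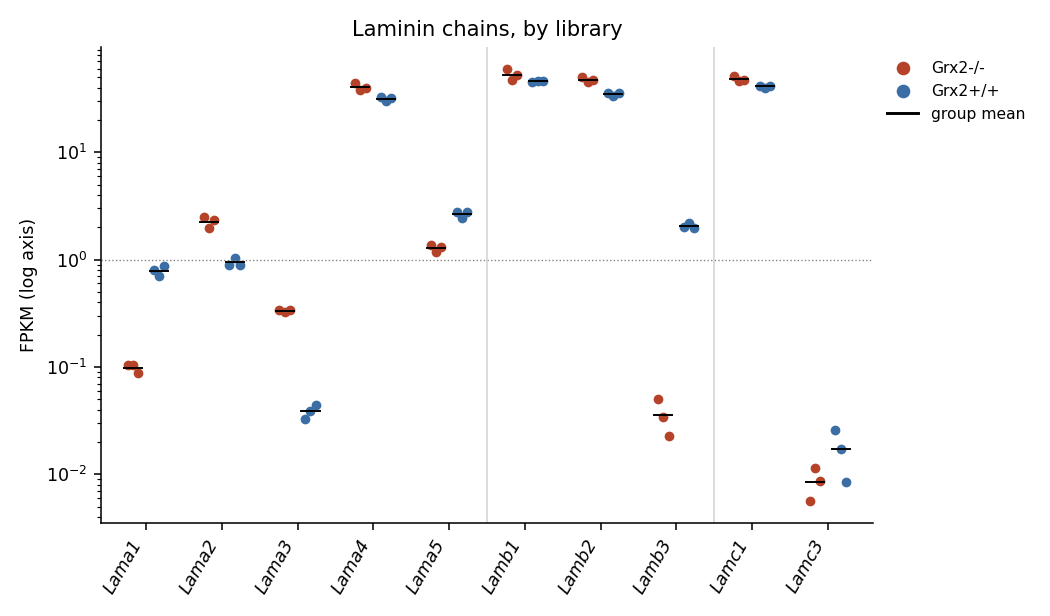
Points give the FPKM of 10 laminin chains in each library on a log axis, Grx2-/- left and Grx2+/+ right for each gene, with bars for group means and a dotted line at 1 FPKM. Lama4, Lamb1, Lamb2 and Lamc1 sit between 29.7 and 59.5 FPKM in every library, and the widest gap is that of Lamb3, 0.0356 FPKM in Grx2-/- libraries against 2.06 FPKM in Grx2+/+ libraries on average.

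Genes that work with the members were read from 4 lists of textbook partners. Of 27 tested integrin adaptors and adhesion proteins, 11 rose, 13 fell and 3 were not called, with a median log2 fold change of 0.02. The kindlins Fermt2 and Fermt3, which help switch integrins on, changed in opposite directions: Fermt2, the widespread form, averaged 38.0 ± 2.4 FPKM in Grx2-/- libraries and 90.0 ± 3.2 FPKM in Grx2+/+ libraries (log2 -1.22 ± 0.05, limma adjusted p = 3.54e-07). Fermt3, the kindlin of blood cells, averaged 32.7 ± 3.6 FPKM in Grx2-/- libraries and 11.6 ± 0.8 FPKM in Grx2+/+ libraries (log2 1.42 ± 0.08, limma adjusted p = 2.06e-06). Tln2, a talin of muscle and brain, fell by 1.40 ± 0.07 and Ptk2b, the kinase related to focal adhesion kinase that blood cells make, rose by 1.24 ± 0.08. Fermt3 and Ptk2b were higher in the same libraries as Itgb2 and the leukocyte markers, and the part of blood cells in these values was not tested.

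Ligands of stromal integrins were mostly lower: of 12 tested, 3 rose and 9 fell, with a median log2 fold change of -0.665. Tnc, the tenascin bound by Itga9, averaged 69.0 ± 0.8 FPKM in Grx2-/- libraries and 357 ± 32 FPKM in Grx2+/+ libraries (log2 -2.35 ± 0.06, limma adjusted p = 4.20e-08). Npnt averaged 4.71 ± 0.33 FPKM in Grx2-/- libraries and 17.9 ± 0.8 FPKM in Grx2+/+ libraries (log2 -1.73 ± 0.06, limma adjusted p = 1.17e-07), while its receptor subunit Itga8 rose. Mfge8, a bridge between dying cells and Itgav receptors, fell by 1.18 ± 0.04, and Ccn1, a matrix protein induced by growth factors, rose by 0.58 ± 0.03. Counter-receptors of leukocyte integrins gave 3 rises and 1 fall among 4 tested. Icam1, the ligand of Itgal and Itgam receptors, averaged 26.4 ± 3.1 FPKM in Grx2-/- libraries and 2.50 ± 0.29 FPKM in Grx2+/+ libraries (log2 2.97 ± 0.09, limma adjusted p = 8.91e-08). Vcam1, the ligand of Itga4 receptors, averaged 56.8 ± 6.9 FPKM in Grx2-/- libraries and 15.3 ± 0.5 FPKM in Grx2+/+ libraries (log2 1.82 ± 0.08, limma adjusted p = 4.53e-07). Jam3, a junction protein, rose by 0.26 ± 0.06, and F11r, another, fell by 0.32 ± 0.10.

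Basement membrane partners and other laminin receptors gave 7 rises and 5 falls among 13 tested, with a median log2 fold change of 0.21. Col18a1, a basement membrane collagen, averaged 54.3 ± 2.8 FPKM in Grx2-/- libraries and 14.7 ± 0.2 FPKM in Grx2+/+ libraries (log2 1.82 ± 0.04, limma adjusted p = 3.13e-08). Nid2, a nidogen that links laminin to collagen, averaged 40.8 ± 0.4 FPKM in Grx2-/- libraries and 15.4 ± 0.9 FPKM in Grx2+/+ libraries (log2 1.35 ± 0.05, limma adjusted p = 1.22e-07). Dag1, the laminin receptor dystroglycan, rose by 0.60 ± 0.03, and Ntn1, a secreted protein with laminin-like domains, by 1.34 ± 0.07. With no filter on low values, calls changed in all 4 lists: 11 rose, 12 fell and 6 were not called among 29 adaptors and adhesion proteins, and 2 rose, 9 fell and 2 were not called among 13 ligands. Among 8 counter-receptors 4 then rose, 0 fell and 4 were not called, so the fall of F11r was lost, and among 16 basement membrane partners and laminin receptors 6 rose, 5 fell and 5 were not called. The calls in all 4 lists stand beside the 67.4% of all tested genes that were called.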

How the data were processed

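Per the labels' protocols, RNA was extracted with TRIzol and a VAHTS Universal V6 kit was used for the libraries. The authors deposited 1 table of FPKM, with a column for each of 6 libraries. The submitters' processing notes name HISAT2, HTSeq, R 3.2.0 and the build GRCm39. Neither annotation nor strand setting is stated, so overlapping or antisense genes may share reads. FPKM takes depth and gene length into account but not the composition of a library.

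Groups were taken from the genotype label. Because whole reads were counted, depth and reads could be worked back from the values (99.996% of genes whole in all libraries, relative tolerance 1e-06). The reads served for read ratios, exact conditional binomial 95% intervals and the limit that a count of 0 allows (3 reads over a group). The main comparison was limma 3.58.1 in R 4.3.3 (lmFit, eBayes with trend) on log2(FPKM + 1) over all 6 libraries, Grx2-/- minus Grx2+/+, for genes with a mean of at least 1 FPKM. Fold changes on this scale understate the change of low genes. The script was tested on simulated data.

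The members, their 4 groups, the partner lists and the marker lists were chosen with earlier results of these data known. Every member is named except 1, which is counted but not reported here, and from each partner list up to 4 genes with the smallest p and non-overlapping groups. Correlations of deviations between libraries of the same replicate number were 0.107, 0.124 and 0.02. Those between libraries of other numbers ran from -0.129 to 0.060. The main comparison did not take the numbers to pair libraries, and whether they do is not known. Alternatives were another pseudocount, other filters, median-of-ratios and quantile scaling, robust estimation, a replicate term, voom on the recovered reads, a 2-fold minimum and each library left out; leaving out both libraries that stood apart was added after seeing the data. Promoter windows are those RefSeq gives for GRCm38.p6, another build than that of the notes, and exon overlaps are from GENCODE M21.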

Additional observations from a re-analysis of the deposited data

How the results depend on the processing

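Over the 15 alternatives other than a 2-fold minimum, 14 of them planned and 1 added after seeing the data, the 24 tested members gave 351 values, of which 338 kept their call and direction and 0 changed direction. Calls were kept for 21 members under each of these 15 that tested them; the exceptions were Itga9, Lamb1 and Lamc1, at the settings named with their values. The 2-fold minimum, also planned, left 1111 genes in all (719 higher and 392 lower in Grx2-/- libraries) and 9 members (4 higher, 5 lower). Raising the filter to a mean of 5 FPKM left 15 members, 7 of them lower, because fewer genes were tested. Low members had larger log2 fold changes with voom on the recovered reads, which were -2.215 for Itga2b, 2.035 for Itga4, 2.04 for Itga8, -2.28 for Itga7, 1.26 for Lama2, -1.055 for Lama5 and -5.81 for Lamb3, and with a pseudocount of 0.1 Lamb3 was at -4.00. With the replicate block, 4771 genes were higher and 2791 lower, and 12 members in each direction. Scaling moved the balance of calls: 63.5% were higher as deposited (4737 higher, 2728 lower), 50.2% under median-of-ratios scaling (3699 and 3670) and 46.4% under quantile normalization (3413 and 3945), where the median log2 fold change over all genes tested came to -0.03, against 0.09 as deposited; the cause was not tested. Members under 1 FPKM rest on few reads, and intervals on them cover counting error only.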
